A study of Mus musculus with 16 samples.

Results

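Uridylated miRNA reads were examined in 16 small RNA libraries of mouse 3T9 cells. These are miRNA reads that carry uridine at the 3′ end where the hairpin does not continue with it. The miRNAs described were chosen by their total read level, at least 200 CPM (miRNA reads scaled to a common library total) over all libraries pooled, which gave 112 of the 1167 mature miRNAs in the table. Their uridylated shares, measured in the same libraries, then set the order in which they are described. These 112 miRNAs held 99.1% of all miRNA reads and 99.02% of the uridylated reads. For each miRNA the uridylated share is its uridylated reads divided by all its reads, including trimmed and extended ones. The share was 4.75% over all miRNAs, from 5171226 uridylated reads among 108933833.

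3T9 is an immortalised fibroblast line from mouse embryos. All cells had first been deprived of serum for 72 h, and complete medium with 10% fetal bovine serum was then given. Libraries were made at 0 h, before serum was returned, and at 1, 2, 4, 6, 8, 10 and 12 h, with 2 libraries at each time. The series design text gives 2 independent biological experiments, and each was sequenced in a run of its own, here called run 1 and run 2, so no comparison separates experiment from run. The libraries ranged from 5852087 to 7783249 miRNA reads. The 8 fibroblast and mesenchymal marker miRNAs summed to 345222 to 405746 CPM per library, while the blood, liver, striated muscle, neural and pluripotent lists each stayed at or below 11.8 CPM and the epithelial list, mainly miR-205-5p, reached 133 CPM. Each library is bulk RNA, so fewer cells with uridylated copies and fewer uridylated copies per cell cannot be told apart.

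Uridines are added to RNA 3′ ends by terminal uridylyltransferases such as Tut4 and Tut7, which act on precursor hairpins as well as on mature miRNAs. The 3p arm of a hairpin keeps the 3′ end of the precursor, whereas the 3′ end of the 5p arm is first made when Dicer cuts. Uridylation is best known from let-7 precursors, where Lin28 recruits the enzymes and long tails mark the hairpin for decay.

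The sequences of the most uridylated miRNAs and of the paralogs set beside them are given here because several miRNAs with the same seed had shares that did not overlap in any library. Each is written 5′ to 3′ as in RefSeq (GRCm38.p6). The first capitals mark the seed, bases 2 to 8, and the capitals at the end are the bases that follow the mature miRNA in its hairpin and are not part of it. A uridine added directly to the mature end can be told from hairpin sequence only where the first of these last capitals is not U. The first 4 share the place at the top of the order, and relatives with the seeds of miR-148 and miR-130 follow.
miR-148b-3p: uCAGUGCAucacagaacuuuguCUC
miR-322-3p: aAACAUGAagcgcugcaacacCCC
miR-652-3p: aAUGGCGCcacuaggguugugCAG
miR-24-3p: uGGCUCAGuucagcaggaacagGAG
miR-152-3p: uCAGUGCAugacagaacuuggGCC
miR-148a-3p: uCAGUGCAcuacagaacuuuguCUC
miR-130b-3p: cAGUGCAAugaugaaagggcauCUG
miR-130a-3p: cAGUGCAAuguuaaaagggcauC
miR-301a-3p: cAGUGCAAuaguauugucaaagcAUC
miR-322-5p: cAGCAGCAauucauguuuuggaGUA
miR-199a-5p: cCCAGUGUucagacuaccuguucAGG

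For let-7, miR-26 and the pair miR-221 and miR-222 the base after the mature end, or the share of reads that already run on into it, differed between paralogs.
let-7e-5p: uGAGGUAGgagguuguauaguuGAG
let-7i-5p: uGAGGUAGuaguuugugcuguuGGU
miR-98-5p: uGAGGUAGuaaguuguauuguuGUG
let-7b-5p: uGAGGUAGuagguugugugguuUCA
let-7g-5p: uGAGGUAGuaguuuguacaguuUGA
miR-26a-5p: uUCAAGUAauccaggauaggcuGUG
miR-26b-5p: uUCAAGUAauucaggauagguUGU
miR-221-3p: aGCUACAUugucugcuggguuucAGG
miR-222-3p: aGCUACAUcuggcuacugggucuCUG

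Uridylation was concentrated in a few miRNAs. The median share over the 112 miRNAs was 1.09%. In 15 miRNAs it was at least 10%, in 41 it lay between 1% and 10%, and in 56 it was below 1%, of which 23 were below 0.1%. Shares chose this order, so the order is a description without a test.

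The most uridylated miRNA was miR-148b-3p, a member of the miR-148 and miR-152 family known to repress the DNA methyltransferase Dnmt1. It is encoded at chr15:103285185-103285206 on the plus strand (GRCm38), in an intron of Copz1. At 0, 1, 2, 4, 6, 8, 10 and 12 h its share was 77.8%, 77.6%, 76.9%, 75.4%, 76.8%, 78.2%, 76.7% and 77.1% in run 1. In run 2 the same times gave 73.7%, 71.7%, 74.0%, 73.3%, 73.8%, 72.0%, 73.5% and 72.9%. The runs did not overlap, and within each run the values stayed within a narrow band (77.1% ± 0.85 and 73.1% ± 0.86, SD, n = 8 each). In these cells most reads of this miRNA thus did not end where the reference ends: 133773 of its 177664 reads were uridylated, and 3.03% carried adenine.

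Both arms of the miR-322 hairpin followed among the highest. The hairpin lies on the minus strand of the X chromosome, with the 3p arm at chrX:53054269-53054289 and the 5p arm at chrX:53054306-53054327, and overlaps no other annotated gene. The share of miR-322-3p ranged from 51.9% to 59.8% with a median of 55.6%, and that of miR-322-5p from 21.9% to 28.1% with a median of 25.5%. The 5p arm shares its seed with miR-15 and miR-16, which are known to repress cell cycle genes.

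Next was miR-652-3p (chrX:142739060-142739080, plus strand, an intron of Tmem164), with a lowest share of 43.7%, a median of 47.6% and a highest of 54.3%. It was followed by miR-24-3p, made from the Mir24-2 hairpin at chr8:84208875-84208896 (plus strand, no other gene) and the Mir24-1 hairpin at chr13:63301251-63301272 (plus strand, in an exon of 2010111I01Rik and an intron of Fancc on the opposite strand). Its lowest share was 33.7%, its median 35.4% and its highest 43.2%. The 4 libraries of 0 and 1 h held its highest values, 38.8% and 38.2% in run 1 and 43.2% and 43.0% in run 2. These first 4 miRNAs stood in the same order in all 16 libraries. The 95% Wilson interval of a single library was at most 0.940, 1.86, 2.87 and 1.21 percentage points to each side. The interval leaves out the spread between libraries. The reads carry no molecular identifiers, so amplified copies count as separate reads and the interval may be too narrow even for counting error.

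The other miRNAs among the 10 highest were miR-328-3p with a pooled share of 27.04%, miR-130b-3p with 24.4%, miR-152-3p with 18.8%, miR-143-3p with 15.6% and miR-199a-5p with 14.9%. miR-143 and miR-199a are known as abundant miRNAs of mesenchymal cells. A further 5 miRNAs stood at 10% or more, namely miR-196b-5p (14.8%), miR-320-3p (11.7%), miR-151-3p (10.7%), miR-130a-3p (10.6%) and miR-484 (10.4%).

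**Figure D1:**
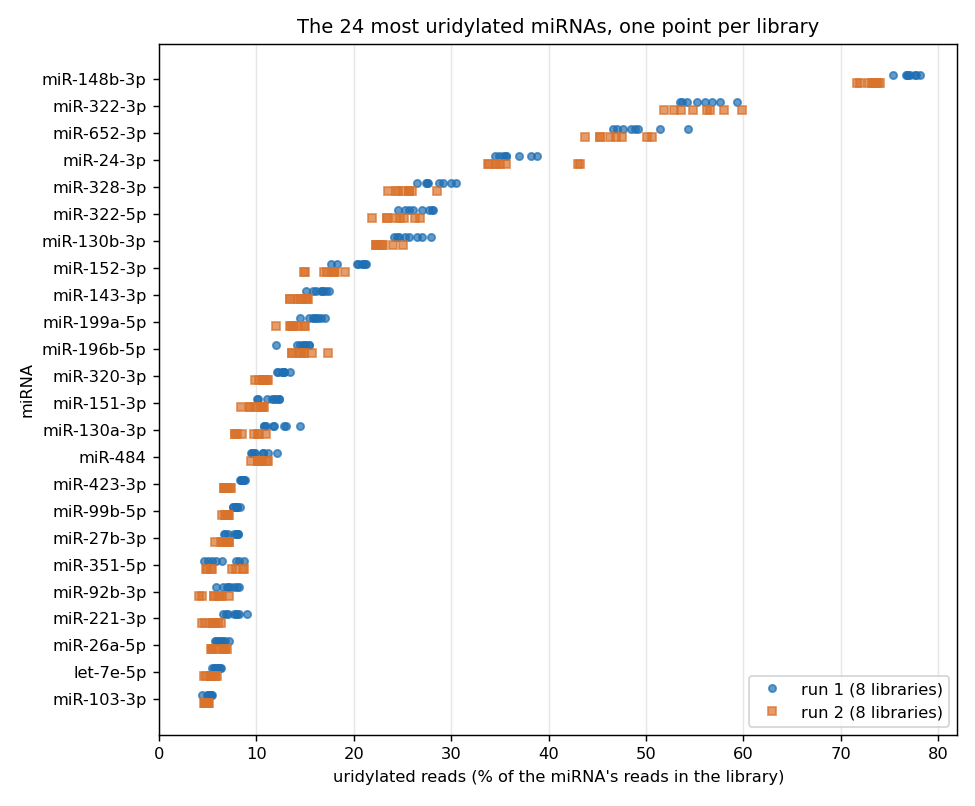
Uridylated share (% of the miRNA's reads in the library, x axis) of the 24 miRNAs with the highest pooled share (y axis), 1 point per library, circles for run 1 and squares for run 2. miR-148b-3p stands between 71.7% and 78.2%, above all others, and most miRNAs have their run 1 points to the right of their run 2 points.

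Shares were mostly higher in run 1. The run 1 mean exceeded the run 2 mean in 85 of the 108 miRNAs with any uridylated read. The ranges of the runs did not overlap for 9 miRNAs, all higher in run 1, and 10 of the 15 miRNAs at 10% or more were higher in run 1 at all 8 times. Among the 15, miR-24-3p and miR-196b-5p went the other way, with 36.2% ± 1.58 in run 1 and 36.7% ± 4.00 in run 2, and with 14.5% ± 1.10 and 14.9% ± 1.20 (SD, n = 8 each), differences smaller than the spread within a run.

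Uridine was not the only added base. Of the reads with non-templated 3′ additions, uridine made up 96.9% for miR-322-3p, 95.4% for miR-143-3p, 93.5% for miR-199a-5p, 88.3% for miR-322-5p and 88.1% for miR-148b-3p. The uridine class was in the minority for miR-130b-3p (40.3%) and miR-152-3p (24.8%), where 33.7% and 21.9% of all reads carried adenine. For miR-152-3p mixed additions were the largest class, at 32.8% of all reads. Mixed additions are counted apart from the uridine class, and their name does not say which bases they hold. The uridine class formed more than 50% of the non-templated additions in 8 of the 10 highest miRNAs and in 29 of the 112.

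The miRNAs with the most uridylated reads were mostly not those with the highest shares, with miR-143-3p as the exception. The 5 miRNAs with the most uridylated reads held 80.0% of all of them: miR-143-3p with 2302859, miR-99b-5p with 739830, miR-27b-3p with 631551, miR-26a-5p with 308457 and miR-151-3p with 156284. Their pooled shares were 15.6%, 7.40%, 7.15%, 6.17% and 10.7%. The 10 miRNAs with the highest shares held 51.8%, and miR-143-3p is the one that stands in both groups.

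At the other end, abundant miRNAs had almost no uridylated read. let-7f-5p had 51 in 4344877 reads (0.00117%), miR-22-3p 411 in 15930162 (0.00258%), miR-16-5p 25 in 1261494 (0.00198%), miR-191-5p 37 in 1313345 (0.00282%) and miR-335-5p 3 in 207898 (0.00144%). For 4 miRNAs none was found: 0 of 59169 reads of miR-28a-5p allows a share of up to 0.00507%, and the limits were 0.0112% for miR-155-5p, 0.0113% for miR-3074-2-3p and 0.0138% for miR-19b-3p. The hairpins of miR-22-3p, miR-16-5p, miR-191-5p, miR-335-5p and miR-155-5p continue with U. A single added uridine matches these hairpins, so the low counts do not show how often it was added. For let-7f-5p and miR-19b-3p the hairpins differ at this base, and that of miR-3074-2-3p continues with G. No hairpin sequence was used for miR-28a-5p.

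The 200 CPM threshold set the list. Just above it were miR-574-5p at 204 CPM with a share of 0.0135%, miR-17-5p at 202 CPM with 0.150% and miR-19b-3p at 200 CPM with 0%. Just below it were miR-5099 at 192 CPM with 0%, miR-140-5p at 187 CPM with 15.8% and miR-99b-3p at 186 CPM with 2.53%.

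Arms differed in their shares. The 49 miRNAs of the 3p arm had a median share of 2.64%, and 11 of them reached 10%, against a median of 0.357% for the 62 of the 5p arm, of which 3 reached 10% (miR-322-5p, miR-199a-5p and miR-196b-5p). miR-484, whose name gives no arm, had 10.4%. Of the 20 highest shares, 14 belonged to 3p and 5 to 5p arms.

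For 18 hairpins both arms were among the 112, and the 3p arm had the higher pooled share in 14, in 13 of them in all 16 libraries. The widest gap was that of miR-322, 29.9 percentage points in favour of 3p. For miR-152 the 3p arm had 18.8% and the 5p arm 0.158%, for miR-151 10.7% and 0.439%, and for miR-423 7.79% and 1.32%. miR-199a went the other way in all 16 libraries, with 14.9% on the 5p arm (12.0% to 17.02%) and 2.39% on the 3p arm (2.02% to 2.78%). The 5p arm was also the higher one for miR-145a, miR-30a and miR-3074. For miR-3074 the order is not settled, because the 5p share of 0.00522% lies below the limit given above for the 3p arm. The hairpin continues with U after miR-30a-3p and with C after miR-30a-5p, and for miR-423 it continues with U after the 5p and with C after the 3p arm.

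The base that follows the mature miRNA in its hairpin divided the shares further. If the hairpin continues with uridine, a single added uridine matches it, and the read then falls under templated extension. RefSeq sequences matched 100 of the 112 miRNAs, 94 of them with the hairpin. In 60 the next base was A, C or G, and their median share was 2.50% (0% to 75.3%), with 11 at 10% or more. In 29 the next base was U, and their median was 0.0831% (0% to 3.77%), with 24 below 1% and none at 10% or more. For 5 miRNAs the hairpins that encode them differ at that base, and for 18 no hairpin sequence was used, with a median of 1.59%. All values in this comparison depend on how the authors assigned reads to these classes, of which only the names were used here.

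**Figure D2:**
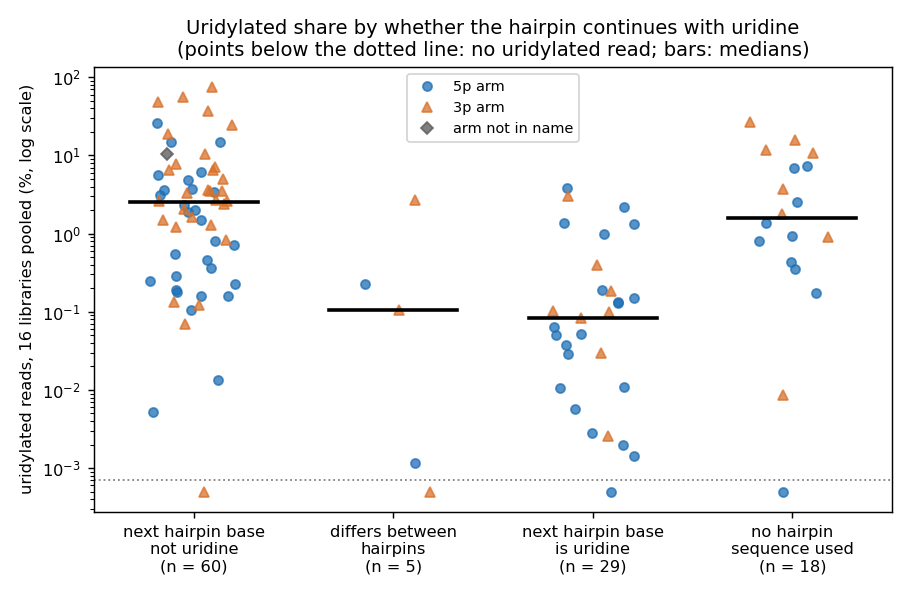
Uridylated share of each of the 112 miRNAs, pooled over 16 libraries (y axis, %, log scale), by the base that follows the mature sequence in its hairpin (x axis), with circles for 5p arms, triangles for 3p arms, a diamond for miR-484 and bars for medians; points under the dotted line had no uridylated read. The median is 2.50% where the next base is not uridine and 0.0831% where it is.

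The arms still differed among miRNAs with a next base other than U, at a median of 3.38% for 30 on the 3p and 0.806% for 29 on the 5p arm. Among the 29 with a next U, the medians were 0.102% for 8 on the 3p arm and 0.0515% for 21 on the 5p arm. The identity of the next base among A (13 miRNAs, median 3.56%), C (19, 2.72%) and G (28, 1.93%) went with smaller differences.

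Low shares also occurred without a templated U. Of the 60 miRNAs with a next base other than U, 16 had at least 10% of reads with templated 3′ extension, and their median uridylated share was 0.635%, against 3.22% in the other 44. miR-222-3p, with 93.7% templated extension, had 0.121%, miR-146b-5p with 93.1% had 0.178%, and miR-30e-5p with 91.5% had 0.189%. Most reads of these miRNAs do not end at the reference end. Conversely, 5 miRNAs with a next U had shares above 1%: miR-26b-5p (3.77%), miR-671-3p (3.02%), miR-181d-5p (2.19%), miR-30c-5p (1.38%) and miR-423-5p (1.32%).

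Paralogs with the same seed could differ widely. In the miR-148 and miR-152 family, whose members share the seed CAGUGCA, miR-148b-3p had 75.3%, miR-152-3p 18.8% and miR-148a-3p 3.45%. The lowest, median and highest library values were 71.7%, 74.7% and 78.2% for miR-148b-3p, 14.9%, 18.2% and 21.2% for miR-152-3p, and 2.97%, 3.42% and 4.08% for miR-148a-3p. The 3 miRNAs did not overlap in any library. miR-148a-3p and miR-148b-3p end alike and are followed by the same 3 hairpin bases, as the printed sequences show. Their templated extension differed, at 25.7% of reads for miR-148a-3p and 2.08% for miR-148b-3p. miR-152 lies at chr11:96850439-96850459 (plus strand, an intron of Copz2) and miR-148a at chr6:51269829-51269850 (minus strand, no other gene).

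The miR-130 and miR-301 family showed the same kind of ladder. miR-130b-3p (chr16:17124071-17124092, minus strand, an intron of 2610318N02Rik) ranged from 22.3% to 28.0% with a median of 24.3%. miR-130a-3p ranged from 7.77% to 14.5% with a median of 10.8%, and miR-301a-3p from 1.31% to 1.94% with a median of 1.65%. The order was the same in all 16 libraries without overlap. The miR-130 paralogs differ inside the sequence and end alike.

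In the miR-99 and miR-100 family, miR-99b-5p had 7.40% (6.49% to 8.30%), miR-100-5p 3.14% (2.59% to 3.56%) and miR-99a-5p 0.358% (0.161% to 0.564%), again without overlap. miR-221-3p, which with miR-222-3p is known to repress the cell cycle inhibitor Cdkn1b, had 6.47% (4.39% to 9.04%), while miR-222-3p had 0.121% (0.0457% to 0.304%).

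The let-7 family, tumour suppressive miRNAs that repress Lin28, Hmga2 and Ras genes, spread over 9 members of 1 seed. let-7e-5p had 5.61% (4.59% to 6.38%), let-7i-5p 3.59% (3.17% to 4.15%) and miR-98-5p 1.87% (1.49% to 2.20%), and in all 3 the hairpin continues with G. let-7b-5p, which continues with U, had 0.981% (0.672% to 1.32%). The other 5, let-7g, let-7d, let-7c, let-7a and let-7f, had 0.0502% or less, and each of these overlapped its neighbour in the order. The hairpins of the first 4 of these continue with U, but 1 of the 2 let-7f hairpins, Mirlet7f-1, continues with G, and let-7f-5p had the lowest share of the family, 0.00117%.

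Further families were closer. miR-92b-3p had 6.52%, while miR-92a-3p (2.68%) and miR-25-3p (2.64%) overlapped, the first being higher in 8 of 16 libraries. miR-27b-3p had 7.15% and miR-27a-3p 3.31%, and miR-26a-5p had 6.17% and miR-26b-5p 3.77%, both pairs without overlap. Seeds also joined miRNAs of different names. miR-322-5p, at 25.6%, has the seed AGCAGCA of miR-15a-5p (2.54%), miR-15b-5p (0.0373%) and miR-16-5p (0.00198%), and miR-351-5p, at 6.98%, has the seed CCCUGAG of miR-125a-5p (0.545%) and miR-125b-5p (0.0515%). The hairpins used for miR-15b-5p, miR-16-5p and miR-125b-5p continue with U, so a single added uridine matches them. Those of miR-322-5p and miR-125a-5p continue with G. No hairpin sequence was used for miR-15a-5p and miR-351-5p.

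**Figure D3:**
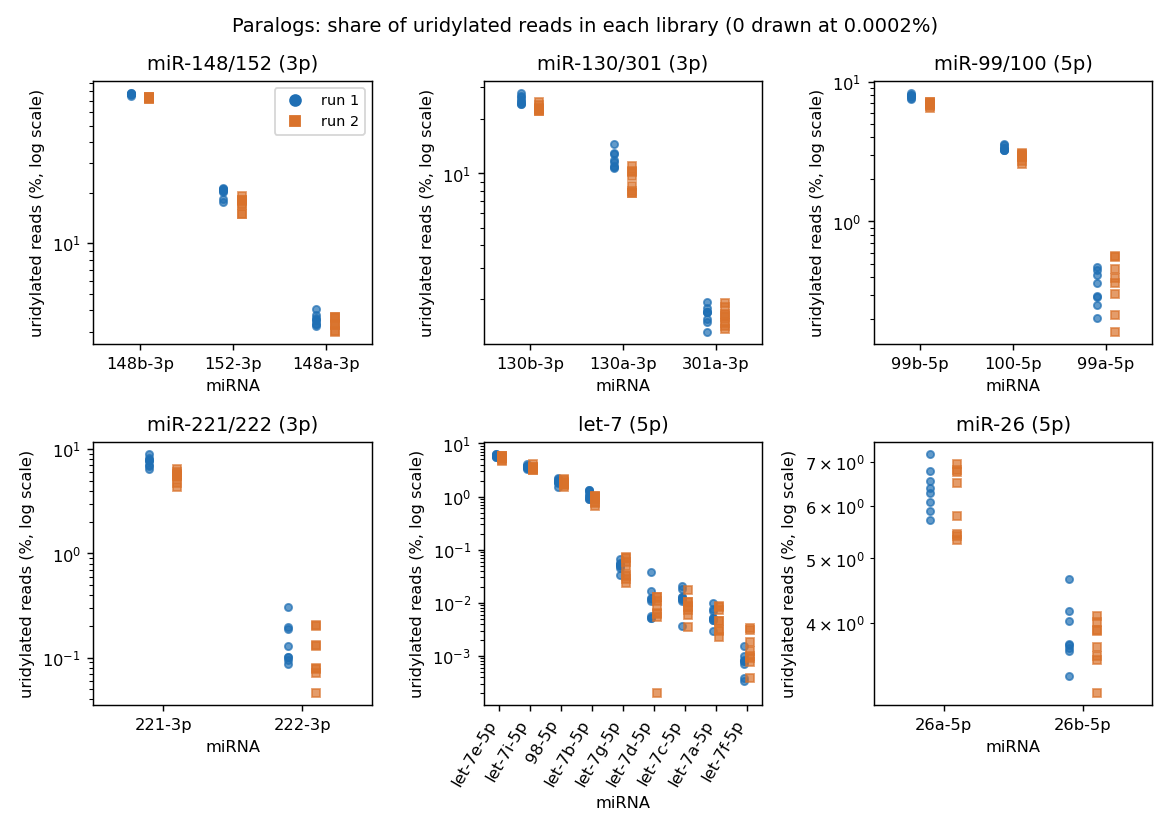
Uridylated share (% of the miRNA's reads, y axis, log scale) in each library for the members of 6 families (x axis), circles for run 1 and squares for run 2. miR-148b-3p, miR-152-3p and miR-148a-3p are apart in every library, and the let-7 family runs from 5.61% for let-7e-5p to 0.00117% for let-7f-5p.

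Over the serum course the uridylated share of all miRNA reads was lower late than early in both runs. In run 1 it was 5.11%, 5.34%, 5.37%, 5.15%, 5.20%, 5.14%, 4.86% and 4.64% from 0 to 12 h. In run 2 it was 4.73%, 4.73%, 4.59%, 4.18%, 4.40%, 4.37%, 3.86% and 4.06%. Run 2 was below run 1 at every time, and the last times were the lowest in each run. The slope was -0.0452 points per hour in run 1 (Pearson r = -0.81, exact permutation p = 0.0111, n = 8; Spearman rho = -0.60, exact p = 0.132) and -0.0623 in run 2 (r = -0.87, exact permutation p = 0.00742, n = 8; rho = -0.88, exact p = 0.00724), two-sided, with both Pearson p-values adjusting to 0.0147 and the Spearman p-values to 0.132 and 0.0147 over these 4 tests. Without 10 and 12 h the slope in run 1 was -0.0118 (r = -0.33, exact permutation p = 0.5, n = 6), so the relation there rests on those times. In run 2 the slope without them was -0.0528, close to that over all times, and did not pass the test (r = -0.74, exact permutation p = 0.108, n = 6). Leaving out the 12 h library alone ended the call in run 1 (slope -0.0306, exact permutation p = 0.0887, n = 7).

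The library-wide share weights miRNAs by their reads, and miR-143-3p supplies much of it. Without miR-143-3p the slopes were -0.0370 and -0.0443 points per hour. With every one of the 112 miRNAs weighted equally the mean share went from 5.33% to 5.07% in run 1 (slope -0.0156, exact permutation p = 0.0679, n = 8) and from 4.89% to 4.63% in run 2 (slope -0.0154, exact permutation p = 0.0162, n = 8). Reads with added adenine stood at 2.07% at 0 h and 2.67% at 12 h in run 1 and at 2.93% and 3.45% in run 2. Reads with added cytosine stood at 0.678% and 1.19% in run 1 and at 0.253% and 0.967% in run 2.

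**Figure D4:**
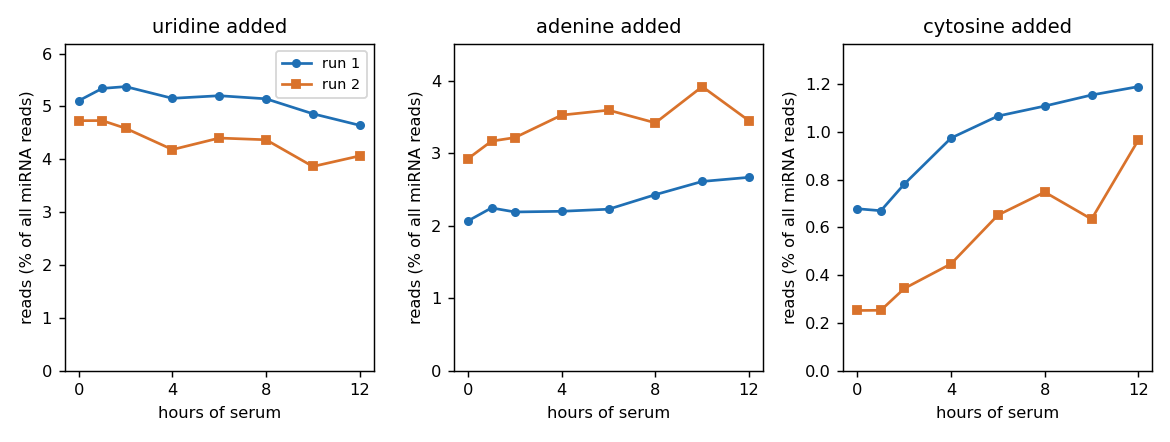
Share of all miRNA reads (y axis, %) with added uridine, adenine or cytosine in 1 panel each, against hours of serum (x axis), circles for run 1 and squares for run 2, 1 point per library. The uridine share goes from 5.11% to 4.64% in run 1 and from 4.73% to 4.06% in run 2, while the adenine and cytosine shares are higher at 12 h than at 0 h.

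Changes of single miRNAs were tested with edgeR's quasi-likelihood test on uridylated counts relative to the miRNA's own reads in the library, so a change in level alone does not move the result. Of the 112 miRNAs, 87 had enough uridylated reads to be tested, 21 had too few and 4 had none. The Benjamini-Hochberg adjustment ran over all 162 miRNAs tested, at 0.05. With a linear trend over the hours and no block for the run, 16 of the 87 changed, 4 rising and 12 falling. This stands beside 13% of all tested miRNAs (2.47% rising and 10.5% falling). The median slope was -0.0003 log2 units per hour over the 87 and -0.0018 over all tested. With the run as a block 35 changed, 13 rising and 22 falling, beside 27.8% of all tested (8.64% and 19.1%), and all 16 were among them. When the trimmed mean of log shares over the tested miRNAs was taken out of each library, 15 rose and 14 fell. This mean log share, centred per miRNA, weights miRNAs equally, unlike the library-wide share. The share of all tested miRNAs called was not worked out for this setting. Leaving out 1 library gave 3 to 9 rising and 8 to 15 falling, with 9 rising without the 0 h library of run 1.

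Each run alone gave 21 called miRNAs in run 1 (8 rising and 13 falling, beside 14.2% of all tested, 4.94% rising and 9.26% falling) and 16 in run 2 (4 rising and 12 falling, beside 12.3% of all tested, 3.09% rising and 9.26% falling). Without 1 library of the run, the falling count in run 1 was as low as 8 (without 0 or 12 h), and the rising count in run 2 was 1 (without 1 or 10 h) or 2 (without 0 or 8 h). Of the 16 called over both runs, 10 were called in each run on its own. The test for a difference in slope between the runs called none of the 87 (beside 0% of all tested; 1 of the 87 had an unadjusted p under 0.05 with edgeR, and no other tool was run on this).

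The clearest fall was that of miR-351-5p, a neighbour of miR-322 on the X chromosome (chrX:53053315-53053338, minus strand, no other gene). Its share from 0 to 12 h was 7.93%, 8.68%, 8.23%, 6.49%, 5.87%, 5.45%, 5.06% and 4.63% in run 1. In run 2 it was 8.67%, 8.64%, 7.88%, 7.53%, 5.36%, 5.44%, 4.78% and 4.94%. All values to 2 h were above all values from 4 h on, in both runs. The slope was -0.0786 ± 0.0061 log2 units per hour (SE, edgeR quasi-likelihood test, adjusted p = 9.15e-09), and the 12 h share was 0.80 ± 0.09 log2 units below that at 0 h (adjusted p = 0.000206). Trimmed reads of this miRNA went from 76.7% to 82.7% in run 1 and from 73.3% to 78.8% in run 2 between 0 and 12 h. Set against reads that are not trimmed or extended at the 5′ end, the slope was -0.0361 (adjusted p = 0.000818).

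miR-26a-5p rose. This miRNA is made from hairpins in introns of Ctdspl (chr9:119031811-119031832, plus strand) and Ctdsp2 (chr10:126995543-126995564, plus strand). Its share was 5.89%, 5.72%, 6.07%, 6.27%, 6.39%, 6.54%, 6.78% and 7.19% from 0 to 12 h in run 1. In run 2 it was 5.41%, 5.44%, 5.79%, 5.34%, 6.50%, 6.79%, 6.75% and 6.94%. Values from 6 h on were above all earlier ones of the same run. The slope was 0.0289 ± 0.0045 log2 units per hour (edgeR quasi-likelihood test, adjusted p = 0.000246). Its paralog miR-26b-5p, in an intron of Ctdsp1 (chr1:74394324-74394344, plus strand), rose at 0.0272 ± 0.0053 (adjusted p = 0.00187), from 3.66% to 4.66% in run 1 and from 3.13% to 3.90% in run 2. The hairpin of miR-26b-5p continues with U and those of miR-26a-5p with G. Templated extension of miR-26b-5p went from 78.8% to 73.0% of its reads in run 1 and from 77.9% to 71.1% in run 2 between 0 and 12 h. Whether this shift is linked to the rise was not tested. Other non-templated additions of miR-26a-5p went from 2.44% to 3.75% in run 1 and from 2.68% to 4.29% in run 2. Those of miR-26b-5p went from 6.76% to 9.87% and from 6.95% to 11.3%, so the rise was not particular to uridine.

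The other rising miRNAs were miR-335-3p and miR-322-5p. miR-335-3p went from 0.862% to 1.06% in run 1 and from 0.675% to 0.860% in run 2 (slope 0.0425 ± 0.011, adjusted p = 0.0103). The share was highest at 6 h in both runs, at 1.08% and 1.04%, and stood at 0.870% and 0.956% at 10 h. Its trimmed reads went from 10.4% to 20.2% and from 9.96% to 27.4%, and without trimmed and 5′ extended reads in the denominator the slope was 0.0681 (adjusted p = 0.000435). miR-322-5p went from 25.7% to 28.1% and from 23.4% to 26.8% (slope 0.0172 ± 0.0050, adjusted p = 0.0211), and its call was lost without the 10 h library of run 1 (adjusted p = 0.0542) or the 12 h library of run 1 (adjusted p = 0.0614). It was called in each run alone, with adjusted p = 0.0107 in run 1 and 0.0280 in run 2. Other non-templated additions of miR-322-5p went from 2.70% at 0 h to 3.93% at 12 h in run 1 and from 3.14% to 4.73% in run 2. Those of miR-335-3p went from 0.466% to 0.754% and from 0.562% to 0.942%.

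Among the falling miRNAs the largest slopes besides miR-351-5p were those of 4 miRNAs, of which 3 had shares below 0.4% in every library. miR-222-3p fell at -0.14 ± 0.026 log2 units per hour (adjusted p = 0.00106), from 0.304% to 0.0873% in run 1 and from 0.131% to 0.0457% in run 2, on 8 to 26 uridylated reads per library. Between 0 and 12 h its templated extension went from 90.4% to 95.3% of reads in run 1 and from 90.4% to 96.1% in run 2. Its other non-templated additions went from 3.12% to 1.70% and from 3.12% to 1.30%. The denominators of its slope tests kept the templated reads, and a share among reads without them was not tested. miR-298-5p fell at -0.0838 ± 0.019 (adjusted p = 0.00454), from 0.290% to 0.155% and from 0.256% to 0.111%. miR-181b-5p fell at -0.0688 ± 0.014 (adjusted p = 0.00268), from 0.299% to 0.105% and from 0.285% to 0.186%.

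miR-27a-3p, known to restrain adipogenesis, fell at -0.0744 ± 0.016 (adjusted p = 0.00307). Its share went from 4.47% to 2.54% in run 1 and from 4.20% to 2.26% in run 2, unevenly, with 4.18% at 6 h in run 1 and 2.16% at the same time in run 2. Over all libraries, 80.0% of its reads were trimmed, and against untrimmed reads its slope was -0.0421 with an adjusted p of 0.0575. Its paralog miR-27b-3p fell at -0.0234 ± 0.0062 (adjusted p = 0.0119), from 8.03% to 6.68% and from 6.89% to 5.74%. Its trimmed reads went from 42.3% to 52.0% in run 1 and from 42.3% to 55.9% in run 2 over the same time. Without trimmed and 5′ extended reads in the denominator its slope was 0.0027 (adjusted p = 0.805), so the fall was seen as a share of all its reads and not as a share of these. The call was also lost without the 12 h library of run 2 (adjusted p = 0.0690).

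The remaining 6 that fell were miR-125b-1-3p, miR-872-3p, miR-181a-5p, miR-151-3p, let-7i-5p and miR-145a-5p, with slopes between -0.0631 (miR-872-3p) and -0.0179 (let-7i-5p). miR-125b-1-3p, the partner arm of miR-125b, had 3.30% at 0 h and 2.29% at 12 h in run 1, and 2.92% and 2.22% in run 2. miR-151-3p, from 10.7% over all libraries, fell at -0.0262 ± 0.0067 (adjusted p = 0.0103), a call lost without the 12 h library of run 2 (adjusted p = 0.0510). That of let-7i-5p (adjusted p = 0.0286) was lost without the 0 or 10 h library of run 1 or the 2 or 12 h library of run 2 (adjusted p = 0.0518 to 0.0871). That of miR-145a-5p (adjusted p = 0.0492) was lost without the 0, 1, 2, 4, 6 or 10 h library of run 1 or the 0, 1, 8, 10 or 12 h library of run 2 (adjusted p = 0.0526 to 0.135).

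**Figure D5:**
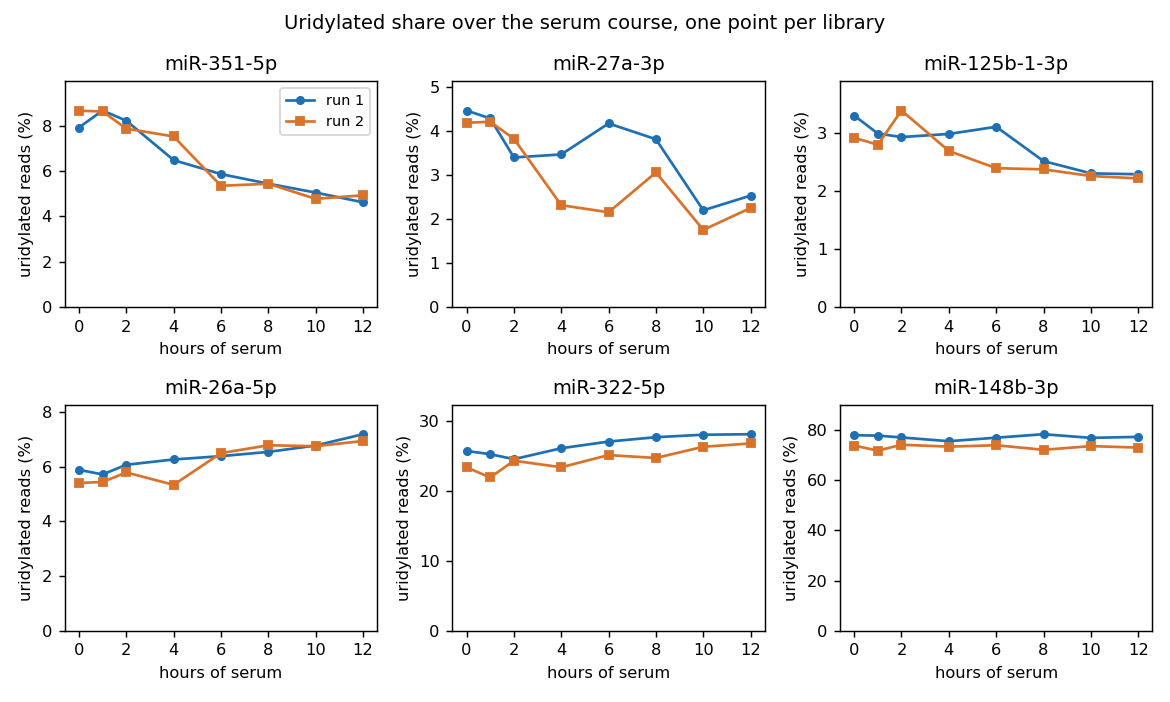
Uridylated share (% of the miRNA's reads, y axis from 0) against hours of serum (x axis) for 6 miRNAs, circles for run 1 and squares for run 2, 1 point per library. miR-351-5p goes from 7.93% to 4.63% in run 1 and from 8.67% to 4.94% in run 2, miR-26a-5p is higher at 12 h than at 0 h in both runs, and miR-148b-3p lies between 71.7% and 78.2% with its runs apart.

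Slopes of the most uridylated miRNAs are relative to high shares, so a small log2 slope can stand for several percentage points. miR-24-3p went from 38.8% at 0 h to 34.9% at 12 h in run 1 and from 43.2% to 35.6% in run 2. miR-322-3p went from 56.8% to 59.4% in run 1 and from 53.6% to 59.8% in run 2. miR-148b-3p had a slope of -0.0003 ± 0.0038 log2 units per hour (adjusted p = 0.992), miR-130b-3p -0.0018 ± 0.0066 (adjusted p = 0.961) and miR-322-3p 0.0110 ± 0.0038 (adjusted p = 0.0574). Of the 10 highest, miR-322-5p passed the test. With the run as a block, miR-322-3p, miR-652-3p, miR-24-3p, miR-328-3p, miR-152-3p, miR-143-3p and miR-199a-5p passed as well. Their blocked slopes were between -0.0208 (miR-152-3p, adjusted p = 0.000976) and 0.0157 (miR-199a-5p, adjusted p = 0.00173), and that of miR-143-3p was -0.0120 (adjusted p = 0.00230). miR-92a-3p, with a slope of -0.0427 (adjusted p = 0.0512), had an adjusted p of 3.36e-07 with the block.

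The 12 h libraries against those at 0 h gave 3 falling miRNAs, miR-351-5p, miR-222-3p and miR-181b-5p, beside 2.47% of all tested falling and 0% rising. Without the run as a block, none of the 87 rose by edgeR, DESeq2 or limma, and these fits leave the pairing of libraries by run unused. In the same edgeR fit 16 of the 87 had an unadjusted p under 0.05 in either direction. Leaving out 1 library moved the falling count to between 1 and 5. With the run as a block, 7 rose (beside 4.32%) and 20 fell (beside 13.6%). Any pattern over the 8 times was called for miR-351-5p alone (1 of the 87, beside 0.617%), and for 21 with the block (beside 13%).

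Levels of the same miRNAs were set beside the shares. Of all 112 miRNAs, 22 rose and 14 fell in level over the hours (edgeR, TMM scaling, beside 12% rising and 13.1% falling of the 449 tested). With scaling by total counts the split was 13 and 36, and the share of all tested miRNAs called was not worked out for this scaling. Of the 16 miRNAs with a changed share, 13 had a level slope of the opposite sign, and among the 9 with both slopes called, 7 did. Over all 87 tested, 47 had opposite signs (r = -0.21 across miRNAs, which share libraries and are no replicates, and whose total reads enter both quantities). miR-222-3p (level slope 0.11 log2 CPM per hour) and miR-125b-1-3p (0.15) rose in level while their shares fell. miR-351-5p fell in both, with a level slope of -0.0830 (adjusted p = 2.98e-06).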

How the data were processed

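Per the labels' protocols, total RNA was extracted with miRNeasy and 1000 ng entered Illumina TruSeq small RNA libraries. The submitters' processing notes name CASAVA 1.8.0. The sources used here name no aligner, miRBase release, build or mismatch rule. The authors deposited unnormalised read counts, split by read class within each miRNA, with a column for each library, per the file headers. Class meanings were read from their names, which do not say whether a tail holds 1 or more uridines. Of 6511 entries, 1 duplicate was dropped, and 3 without a templated or non-templated class (7 reads) were left out. Totals are sums of 8 classes, each read counted once.

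The members, lists and tests were chosen with earlier results of these data known. The named miRNAs were the 10 highest and 5 lowest shares, the 5 with most uridylated reads, the 5 largest changes each way among called, paralog families, arm pairs and threshold neighbours. Others were named after their values were seen. Tests used edgeR 4.0.16 in R 4.3.3, a minimum count of 10 and all 16 libraries, and those of shares had an offset of log total reads per miRNA. Standard errors are the log2 slope divided by the root of F. Alternatives included DESeq2 1.42.0. On simulated data with 162 miRNAs, the trend test recovered 7 of 12 slopes of 0.05 and 27 of 28 of 0.1, with 3 false calls among 122 unchanged. No difference between runs was simulated. Slopes smaller than 0.05, where several called slopes lie, were not simulated either.

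The number in the labels marks the experiment and run, so it pairs libraries across times. The deviations of libraries from their time means correlated between -0.19 and 0.34 over the 28 pairs of times for 162 miRNAs (above 0.1 in 9), and between 0.08 and 0.51 for the 76 miRNAs with a mean of at least 50 uridylated reads (above 0.1 in 27). Intervals are Wilson, at 95%. Limits for 0 reads use 3 counts.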

Additional observations from a re-analysis of the deposited data

How the results depend on the processing

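Of the 16 called slopes, that of miR-27b-3p changed sign, to 0.0027 with a denominator without trimmed and 5′ extended reads, and the other 15 kept theirs under every alternative run on them. Beside the settings given in the report, miR-322-5p lost the call without a count filter (adjusted p = 0.120) and with limma (adjusted p = 0.0579). The call of let-7i-5p was lost without that filter and with limma (adjusted p = 0.119 and 0.101), and with the mean log share taken out (adjusted p = 0.102). That of miR-145a-5p was lost without that filter and with limma (adjusted p = 0.102 and 0.101), and with the other denominator (adjusted p = 0.0822). The replicate block moved any change from 1 to 21, rising trends from 4 to 13, falling from 12 to 22, and 12 h against 0 h from 0 to 7 rising and from 3 to 20 falling. Taking out the mean log share gave 9 for any change, 15 rising and 14 falling trends, 6 rising and 6 falling at 12 h, and 11 rising in run 2 instead of 4. For this and the following settings the share of all tested miRNAs called was not worked out. A denominator without trimmed and 5′ extended reads gave 3 for any change and 2 rising at 12 h. Without a filter on low counts, any change gave 10 and falls at 12 h 6, and rising trends numbered 8 with at least 50 reads per library. DESeq2 gave 2 for any change. Leaving out each library in turn gave 1 to 2 for any change, 3 to 9 rising and 8 to 15 falling trends (9 without the 0 h library of run 1), 0 rising and 1 to 5 falling at 12 h, 6 to 8 rising and 8 to 14 falling in run 1, 1 to 6 rising and 8 to 14 falling in run 2, and 0 for the slope difference. The lowest counts at 12 h, 1 falling, came without the 0, 2, 4, 10 or 12 h library of run 1 or the 2, 4 or 10 h library of run 2, and the 5 without the 6 h library of either run. The cause was not tested.

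Level trends with total counts gave 13 rising and 36 falling, without a share of all tested miRNAs to set beside them. With all non-templated reads as denominator, 6 of the 10 highest shares were kept and 72 miRNAs reached 10%. The library-wide slope in run 1 was -0.0156 for the mean of member shares and -0.0118 without 10 and 12 h, and in run 2 -0.0528 without 10 and 12 h. Without 0 and 12 h, a choice made after seeing the data, the slopes were -0.0473 and -0.0723. Leaving out 1 library gave -0.0597 to -0.0306 in run 1 and -0.0723 to -0.0520 in run 2. Uncalled slopes near 0 changed sign. That of miR-148b-3p went to 0.0069 with the mean log share taken out and lay between -0.0016 and 0.00098 without 1 library. That of miR-130b-3p went to 0.0053 with that offset and 0.0052 with the other denominator, and lay between -0.0042 and 0.0018 without 1 library. Depth limits the 21 miRNAs with too few uridylated reads to test and the lowest shares, where a library holds a few such reads or none.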
